A study of Mus musculus with 21 samples.

Results

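The medium response of SLC16A1 clone 2, a mouse embryonic stem cell (ESC) line, was measured by poly(A) RNA sequencing as the difference between cells in SL2i and cells in SL. The comparison rests on 2 SL2i libraries and 3 SL libraries of this clone, 5 of the 21 libraries of the series, and on the 17178 of 40838 genes in the table that had enough reads to be tested. All cells were held for 48 h in a mix of DMEM and NB medium with 10% dialyzed serum and 0.2 mM pyruvate, so the pyruvate supply was the same in both groups. The growth protocol names leukemia inhibitory factor (LIF) and, for the second condition, inhibitors of GSK3B and MEK (2i). SL was therefore read as serum with LIF and SL2i as the same with both inhibitors, following usage in this field. Clone 2 was set beside SLC16A1 clone 1 and a line called chr8A, each again with 2 SL2i and 3 SL libraries. The chr8A line was read as the control line, which the labels do not spell out. The sources used here do not say in which way the clones were altered. Each line is 1 clone or line sampled repeatedly, and nothing in the labels says that its libraries came from separate thaws or derivations, so the p-values reflect no more than the spread between libraries, and that may be technical. Slc16a1 encodes MCT1, a plasma membrane transporter that carries pyruvate and lactate together with protons.

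Mouse ESCs in serum and LIF are a mixed culture in which naive pluripotency genes compete with genes of a more advanced, formative state. Autocrine FGF4 signals through MEK and ERK and pushes cells towards differentiation, and the MEK inhibitor of 2i blocks that signal. GSK3B marks beta-catenin for destruction, so its inhibitor raises beta-catenin and relieves the repression that TCF factors exert on pluripotency genes. Cells in 2i are known for a uniform naive state, low levels of de novo DNA methyltransferases and low activity of MEK target genes.

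The labelled cell type was checked first. Levels are given in CPM, counts scaled to a common library size. The sum of 8 ESC markers was 5889 to 5894 CPM in the SL2i libraries and 3288 to 3401 CPM in the SL libraries, and of these markers only Fut4 had no read in SL2i. Markers of other cells were low: 7 fibroblast markers summed to 3.76 to 3.84 CPM in SL2i and 35.1 to 41.3 CPM in SL, with Col3a1, Dcn, Lum and Postn at 0 in SL2i. The 5 trophoblast markers summed to 32.3 to 37.5 CPM in SL2i and 11.6 to 12.7 CPM in SL, and the 5 primitive endoderm markers to 2.40 to 3.46 CPM in SL2i and 5.28 to 7.08 CPM in SL. The 3 neural markers summed to 12.5 to 13.8 CPM in SL2i and 7.01 to 8.31 CPM in SL. Among them Sox1 was higher in SL2i (13.6 and 12.5 CPM, against 2.91, 3.36 and 2.94 CPM in SL). Pax6 was lower (0.198 and 0 CPM, against 5.08, 4.89 and 3.98 CPM). The 4 mesoderm markers summed to 1.88 to 2.21 CPM in SL2i and 1.21 to 2.02 CPM in SL. Called members also moved both ways in the ESC (6 rose, 2 fell), trophoblast (3 rose, 1 fell) and primitive endoderm sums (1 rose, 2 fell). The part of rare other cells in the results below was not tested. In bulk RNA, fewer cells of a type and less RNA per cell cannot be told apart. Total counts were 10347046 and 10908368 in the SL2i libraries and 15802072, 30095594 and 30145771 in the SL libraries, so depth moved with the medium. The first principal component of the 5 libraries held 92.7% of the variance and separated the media, and replicates of clone 2 differed from each other by more than counting noise.

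Changing the medium moved most of the measured transcriptome of clone 2. At a Benjamini-Hochberg adjusted p under 0.05 in edgeR's quasi-likelihood test, 12550 genes were called, 73.1% of those tested, of which 6156 were higher in SL2i (35.8%) and 6394 lower (37.2%). With a change of at least 2-fold as well, 5914 genes remained (34.4%), of which 2566 rose (14.9%) and 3348 fell (19.5%). At least 8-fold changes were made by 709 called genes that rose and 1201 that fell. Of these, 563 and 682 averaged under 1 log2 CPM. In 225 genes no read was found in SL2i, and in 100 genes none was found in SL. Under 1 log2 CPM these were 222 and 100 genes. The SL2i group also had fewer and shallower libraries, and the part of depth in these counts was not tested. The median of all log2 fold changes was -0.01, and the median size was 0.62. The median standard error (SE) of a log2 fold change was 0.115 over all genes, 0.0435 among the 3777 genes at or above 6 log2 CPM and 0.566 among the 4721 genes under 1 log2 CPM. With every library thinned to the depth of the smallest, 11599 genes were called.

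**Figure D1:**
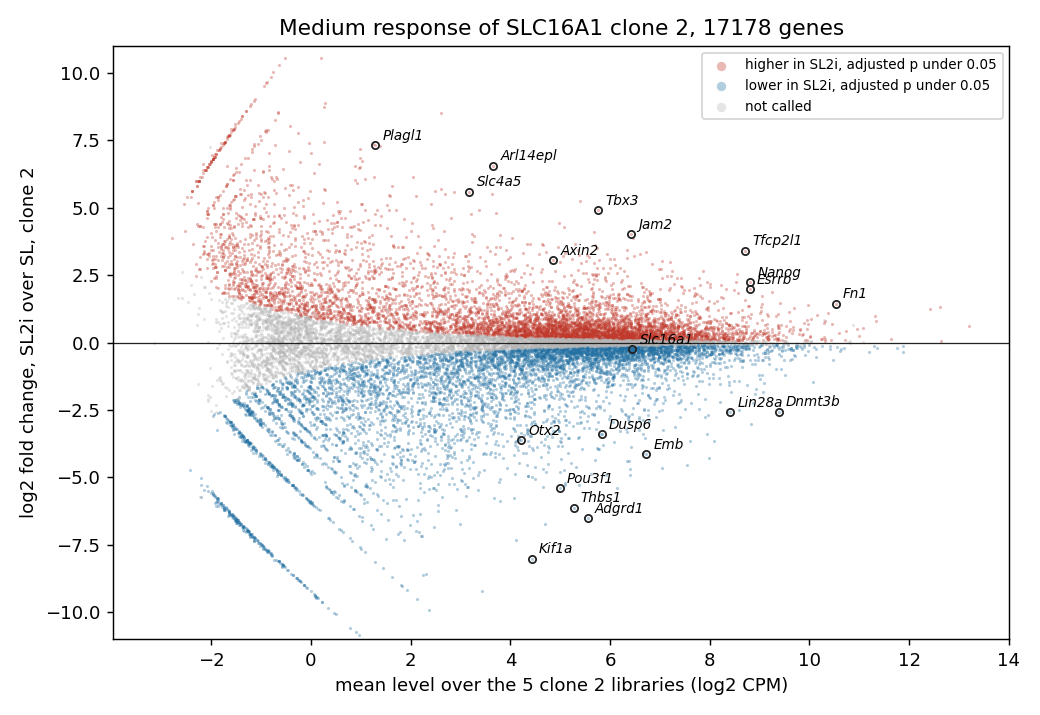
Log2 fold change of SL2i over SL in clone 2 (vertical axis) against the mean level over its 5 libraries in log2 CPM (horizontal axis) for the genes tested, with 4 genes outside the axis. Red points were higher in SL2i, blue points lower and grey points not called; naive genes such as Tfcp2l1 and Tbx3 lie above 0 and Pou3f1, Thbs1 and Kif1a below it, while Slc16a1 lies close to 0.

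Slc16a1 itself was slightly lower in SL2i. Its level was 78.7 and 78.5 CPM in the SL2i libraries of clone 2, against 92.8, 91.4 and 96.5 CPM in its SL libraries. The groups did not overlap, as was the case for 81.5% of all tested genes. The log2 fold change was -0.25 ± 0.05 (SE, edgeR adjusted p = 2.39e-06). Slc16a1 also fell in the other lines, with log2 fold changes of -0.47 ± 0.04 in clone 1 and -0.29 ± 0.04 in chr8A, and the response of clone 2 did not differ detectably from that of chr8A (difference 0.04 ± 0.06, edgeR adjusted p = 0.759). The level differed between the lines in both media: in SL2i it averaged 78.6 ± 0.122 CPM in clone 2, 123 ± 0.732 CPM in clone 1 and 162 ± 6.96 CPM in chr8A (SD, n = 2 each). In SL it averaged 93.5 ± 2.65 CPM in clone 2, 171 ± 10.4 CPM in clone 1 and 198 ± 2.99 CPM in chr8A (SD, n = 3 each). No test between lines within a medium was part of this comparison. Reads of the gene were present in all 5 libraries of clone 2, and since the altered part of the gene is not given, its level is no check of the alteration.

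Genes of naive pluripotency rose as a group. All 18 listed genes were tested, 15 rose and 3 fell, with a median log2 fold change of 1.70 against -0.01 over all genes. For this and each list below, the shares over all tested genes were 35.8% called higher and 37.2% called lower. Tfcp2l1, a transcription factor of the naive network that acts downstream of LIF, had 1648 and 1793 CPM in SL2i, against 164, 162 and 159.7 CPM in SL (log2 fold change 3.41 ± 0.03, edgeR adjusted p = 1.73e-98). Tbx3, a T-box factor that helps hold the naive state, had 424 and 408 CPM in SL2i and 14.4, 13.6 and 13.8 CPM in SL, the largest change in the list at 4.90 ± 0.05. For both genes the groups lay far apart. Klf4, another LIF-responsive factor, had 387 and 389.7 CPM in SL2i and 51.8, 50.1 and 51.4 CPM in SL (2.93 ± 0.04). Esrrb, a nuclear receptor that TCF repression normally limits, had 1010 and 1029 CPM in SL2i and 259, 249 and 266 CPM in SL (1.98 ± 0.03). Prdm14, a repressor of FGF signalling and of de novo methylation, had 57.8 and 61 CPM in SL2i and 4.96, 4.66 and 5.75 CPM in SL (3.53 ± 0.09). Nanog rose by 2.23 ± 0.03, from reads of which 11.1% of sequence words are shared with other genes, so that its value is uncertain. The exceptions were Dppa3 (-2.61 ± 0.08), whose words are 30.4% shared, Gbx2 and Tdgf1, both of which also share more than 5% of their words.

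General pluripotency factors moved little by comparison. Of 12 core genes, 4 rose, 5 fell and 3 were not called, with a median of -0.07. Sox2, a partner of OCT4, had 591 and 568 CPM in SL2i, against 439.9, 456 and 447 CPM in SL (0.37 ± 0.03). Pou5f1, which encodes OCT4, had 1360 and 1350 CPM in SL2i and 1202, 1164 and 1175 CPM in SL (0.20 ± 0.03, 14.7% of words shared). In contrast Lin28a, an RNA-binding protein that blocks let-7 maturation, fell to 112 and 119.9 CPM in SL2i, against 699, 699 and 687 CPM in SL (-2.58 ± 0.04, 5.2% shared). Utf1, a chromatin-bound pluripotency protein, fell by 1.30 on the log2 scale.

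Genes of the formative and primed epiblast fell. Of 17 tested, 16 fell and 1 rose, with a median of -2.83. Pou3f1, a POU factor that works with OTX2 in the exit from naive pluripotency, fell to 3.47 and 3.17 CPM in SL2i, against 137, 141 and 142 CPM in SL (-5.40 ± 0.10, 8.27% shared). Otx2 had 4.26 and 3.94 CPM in SL2i and 50.9, 47.2 and 53 CPM in SL (-3.62 ± 0.12). Fgf5, a growth factor and a classic epiblast marker, was almost silent in SL2i, with 3 reads in both SL2i libraries together and 965 in the 3 SL libraries, so that its normalized level was 85.2 times as high in SL (95% interval 29.1 to 414, counting error only). Nes, an intermediate filament of neural progenitors that ESCs in serum also make, had 11.9 and 14.6 CPM in SL2i and 285, 282 and 274 CPM in SL (-4.40 ± 0.06). Foxd3, a repressor that primes enhancers, was the listed gene that rose, by 1.43 ± 0.08 (5.75% shared).

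**Figure D2:**
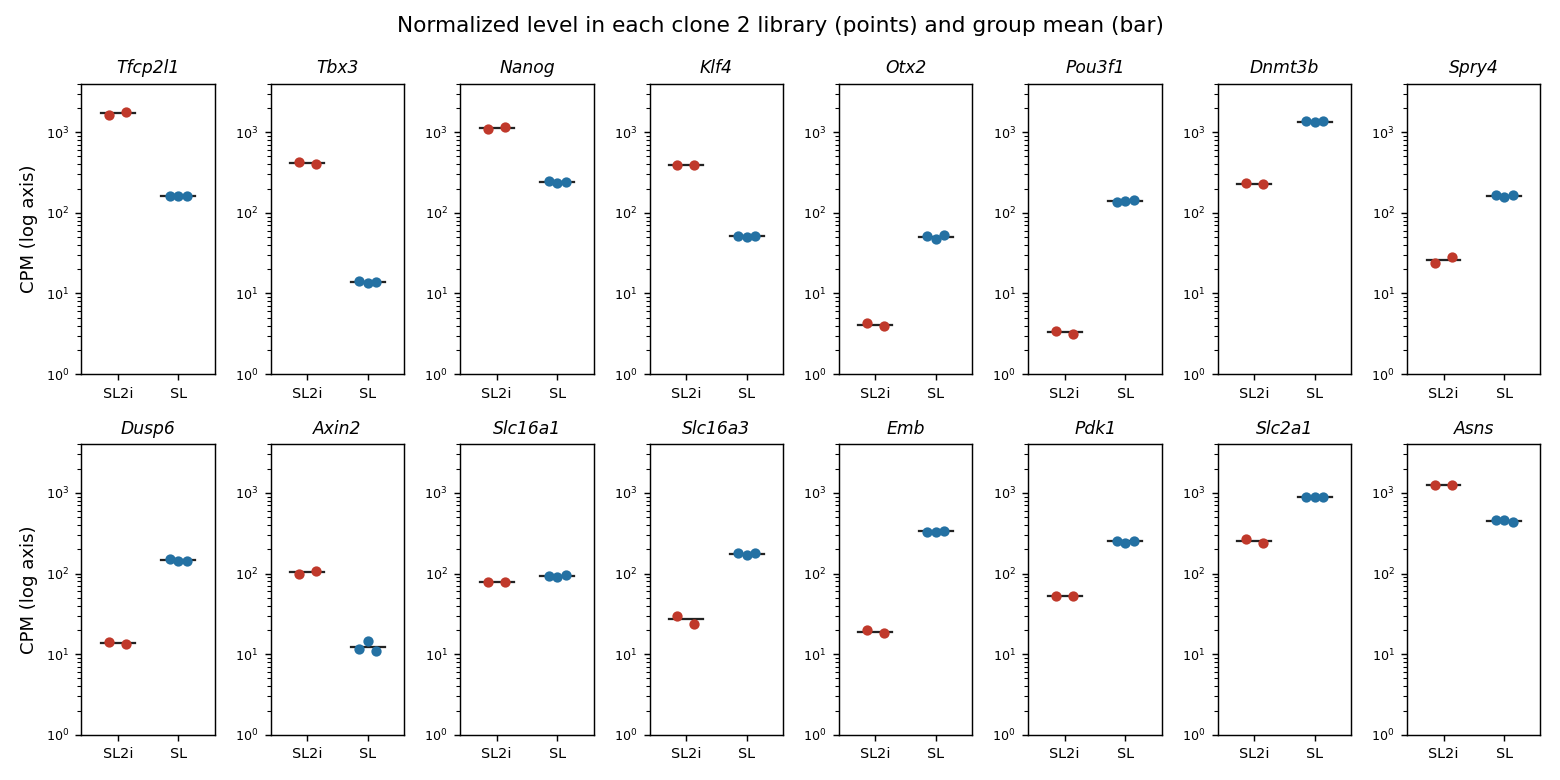
Normalized level in CPM on a log axis (vertical) of 16 genes in each SL2i library (red, left) and each SL library (blue, right) of clone 2, with the group mean as a bar. The groups did not overlap for any gene shown, which also held for 81.5% of all 17178 tested genes. Naive genes, Axin2 and Asns are higher in SL2i. Epiblast genes, ERK output genes and most of the pyruvate-related genes are lower, and Slc16a1 is nearly level.

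Among 19 DNA methylation enzymes and cofactors, 11 rose (57.9%) and 7 fell (36.8%), and the de novo enzymes were among those that fell. Dnmt3b, a de novo methyltransferase, had 233 and 225 CPM in SL2i and 1358, 1344 and 1367 CPM in SL (-2.57 ± 0.04, 13.7% shared). Dnmt3a, the second such enzyme, had 43.7 and 44.3 CPM in SL2i and 252, 261 and 259 CPM in SL (-2.55 ± 0.05). Dnmt3l, their inactive cofactor, fell much less, to 296 and 298 CPM in SL2i, against 457, 428 and 441 CPM in SL (-0.57 ± 0.03). On the demethylating side Tet2, an enzyme that oxidizes methylated cytosine, rose to 335 and 380.3 CPM in SL2i, against 65.4, 67.5 and 68.8 CPM in SL (2.41 ± 0.04). Zfp57, a zinc finger protein that guards imprints, had 607 and 607 CPM in SL2i and 141, 146 and 144 CPM in SL (2.08 ± 0.03). Dnmt1, the maintenance methyltransferase, and Uhrf1, its partner at replicated DNA, rose, by 0.34 ± 0.03 and 1.44 ± 0.03 (24.9% shared), and Tet3, a relative of Tet2, fell by 1.30 ± 0.09 on the log2 scale, so neither writers nor erasers moved in 1 direction.

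Direct output of ERK signalling was lower. Of 22 ERK output genes, 19 fell, 2 rose and 1 was not called, with a median of -1.56. Egr1, an immediate early factor, had 0.297 and 0.576 CPM in SL2i, against 50.5, 45.7 and 47.4 CPM in SL (-6.74 ± 0.32). Dusp4 and Dusp6 encode phosphatases that remove the activating phosphates of ERK. Dusp6 had 14.4 and 13.3 CPM in SL2i and 152, 145 and 141 CPM in SL (-3.40 ± 0.07), and Dusp4 had 2.87 and 1.63 CPM in SL2i and 66.1, 66 and 64.8 CPM in SL (-4.87 ± 0.12). Spry4, a feedback inhibitor of receptor signalling, had 24.2 and 28.2 CPM in SL2i and 167, 158 and 166 CPM in SL (-2.64 ± 0.06). Etv4, an ETS factor made in response to FGF, fell by 1.49 ± 0.07 on the log2 scale. The 2 genes that rose, Etv5 (0.64 ± 0.03) and Etv1, share 30.6% and 10.1% of their words with other genes.

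Serum response factor, together with ERK-regulated partners, binds the CArG box, so promoters were searched for it on both strands. RefSeq promoters of build GRCm38.p6, from 250 bases before to 50 after the start, held it in 1.63% of 32851 cases, in 1.37% of those of tested genes, in 2.54% of those of genes that fell at least 4-fold and in 1.58% of those of genes that rose at least 4-fold. Of the 13 ERK output genes with a promoter 2 held it, Egr2 and Dusp5. These were 5 of 19 promoters, but 3 of the 4 promoters of Egr2 overlap and hold the same box. The ETS core CCGGAAG was in 8.86% of all promoters, in 14.9% of those of tested genes and in 0 of the 19. The CArG box was also in 2 of 11 genes of the Wnt target list below (18.2%), against 15.4% of the ERK genes. Most tested Wnt targets rose, but the directions of the 2 Wnt genes with the box are not given here. Of the 10 fibroblast and matrix genes with a promoter, 1 held it, Myl9. The promoter of Dusp5, an ERK phosphatase of the nucleus, and that of Myl9, a myosin light chain, are printed because each has the box and each gene fell. They are the 250 bases upstream of the start, at chr19:53528895-53529144 on the plus strand for Dusp5 and at chr2:156775214-156775463 on the plus strand for Myl9, with the box in capitals.
Dusp5: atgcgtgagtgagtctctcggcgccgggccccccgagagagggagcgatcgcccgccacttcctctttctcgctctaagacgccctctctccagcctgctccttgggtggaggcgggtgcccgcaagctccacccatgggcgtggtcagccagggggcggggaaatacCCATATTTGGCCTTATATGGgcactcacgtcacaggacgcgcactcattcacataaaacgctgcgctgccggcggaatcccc
Myl9: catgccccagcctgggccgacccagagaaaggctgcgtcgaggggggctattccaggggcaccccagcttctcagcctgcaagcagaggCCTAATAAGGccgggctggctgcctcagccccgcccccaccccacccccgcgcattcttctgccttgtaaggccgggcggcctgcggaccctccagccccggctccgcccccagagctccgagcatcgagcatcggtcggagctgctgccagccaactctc
The 2 boxes of Dusp5 begin 82 and 72 bases before the start and touch each other, and the box of Myl9 begins 161 bases before the start. Dusp5 had 5.45 and 2.98 CPM in SL2i and 28.5, 28 and 27.2 CPM in SL (-2.73 ± 0.14, 21.2% shared). A match is a description of these letters and not a measured binding site.

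Targets of the Wnt pathway, which the GSK3B inhibitor activates, were mostly higher. Of 18 listed genes 16 were tested, 10 rose, 3 fell and 3 were not called, with a median of 0.93. Axin2, a scaffold of the beta-catenin destruction complex and a common reporter of the pathway, had 99.9 and 108 CPM in SL2i, against 11.5, 14.8 and 10.9 CPM in SL (3.05 ± 0.07). Cdx1, a caudal homeobox factor, had 33.3 and 33.2 CPM in SL2i and 0.31, 0.522 and 0.816 CPM in SL (5.79 ± 0.16). Notum, an enzyme that inactivates Wnt proteins, rose by 3.45 ± 0.09, but 33.2% of its words are shared. Sp5, a zinc finger factor induced by beta-catenin, had 16.7 and 18.6 CPM in SL2i and 5.58, 4.47 and 3.92 CPM in SL (1.97 ± 0.14). The TCF/LEF motif CTTTGAT, on either strand, was in 2 of 19 promoters of the list, those of Sp5 and Tnfrsf19, in 3.73% of all promoters and in 2.62% of those of tested genes. The Sp5 promoter is shown because this gene's response also differed between lines. It lies at chr2:70474673-70474922 on the plus strand of GRCm38.p6, and the motif in capitals begins 104 bases before the start.
Sp5: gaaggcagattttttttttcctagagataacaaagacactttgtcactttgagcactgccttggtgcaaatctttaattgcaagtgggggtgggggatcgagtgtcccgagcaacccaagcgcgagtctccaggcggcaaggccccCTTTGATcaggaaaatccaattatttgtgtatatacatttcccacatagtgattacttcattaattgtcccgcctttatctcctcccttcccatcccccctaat
The exceptions were Lef1 (-1.64), Nkd1 (-1.81 ± 0.30) and Ccnd1 (-1.18). Nkd1 feeds back on Wnt signalling, Lef1 is itself a TCF family factor and Ccnd1 is also on the ERK list.

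LIF signalling genes showed no shared direction, with 8 of 14 higher (57.1%), 5 lower (35.7%) and 1 not called (median 0.24). Over all tested genes the shares were 35.8% and 37.2%. Socs3, the feedback inhibitor that STAT3 induces, had 123 and 112 CPM in SL2i, against 117, 114 and 119.7 CPM in SL (0.01 ± 0.04, edgeR adjusted p = 0.905). Pim1, a kinase induced by STAT3, fell by 1.25 on the log2 scale (11.8% shared). Of 19 Nodal and BMP genes, 9 rose (47.4%) and 8 fell (42.1%). Id1, a BMP-induced inhibitor of helix-loop-helix factors, had 4.46 and 3.94 CPM in SL2i and 63.6, 57.6 and 57.7 CPM in SL (-3.82 ± 0.13). Its relative Id3 went the other way, with 29.2 and 28.7 CPM in SL2i and 23.4, 22 and 22.9 CPM in SL (0.35 ± 0.08). Lefty1, an inhibitor of Nodal, fell by 4.63 on the log2 scale (26.3% shared), while Nodal rose by 0.85.

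**Figure D3:**
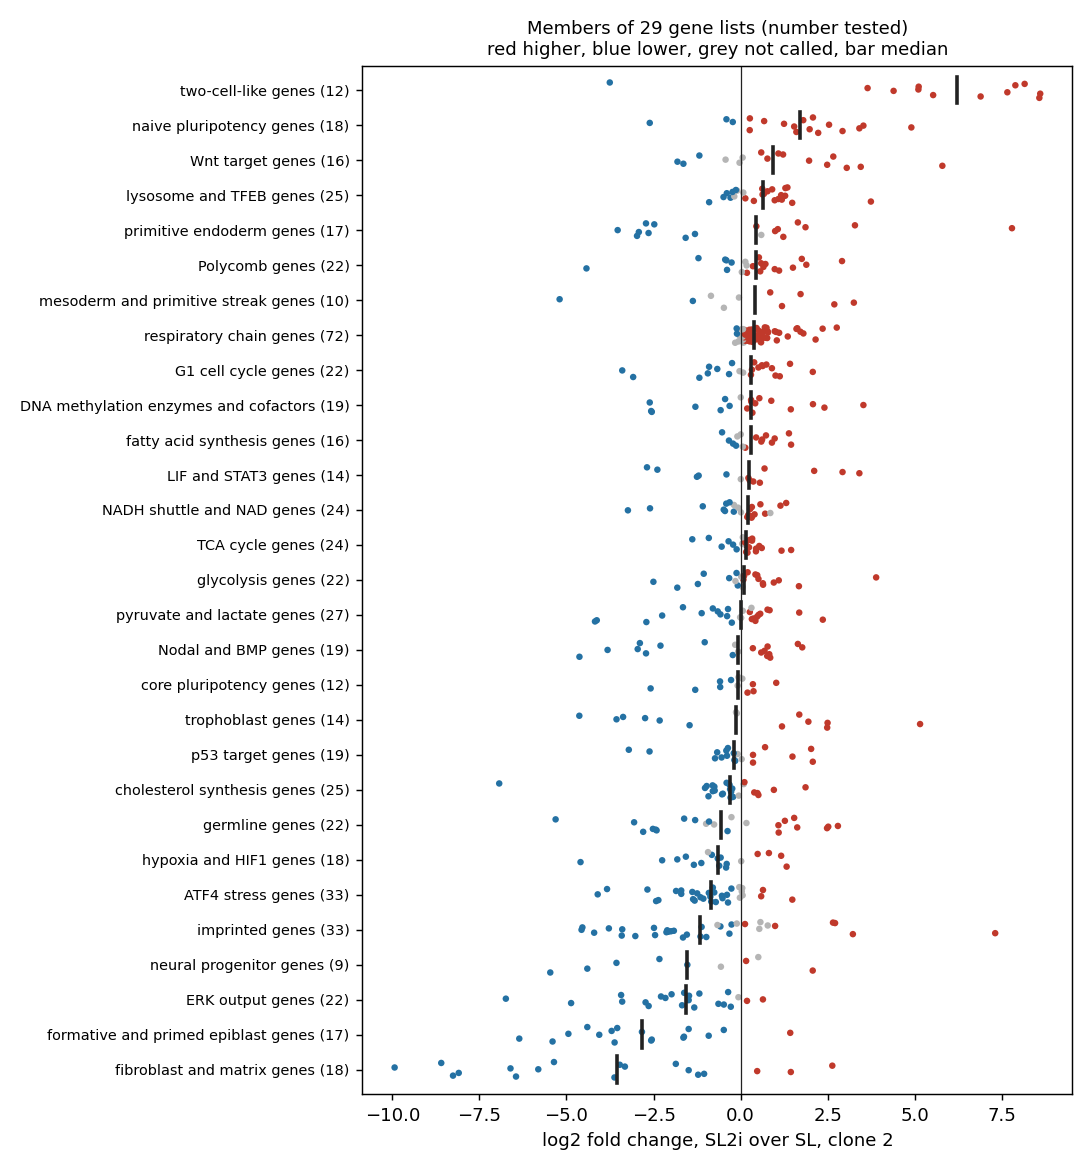
Log2 fold change of SL2i over SL in clone 2 (horizontal axis) for each tested member of the 29 gene lists (rows, with the number tested), red for called higher, blue for called lower and grey for not called, with the list's median as a bar. Two-cell-like, naive and Wnt target genes lie mostly to the right and fibroblast, formative and ERK output genes mostly to the left; values of genes with no read in a group depend on the prior count of the fit.

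Genes of the actin cytoskeleton and the matrix gave some of the deepest falls. Of 18 tested fibroblast and matrix genes, 15 fell and 3 rose, with a median of -3.54, or -3.39 when the 3 members without a read in a group are set at their bound. Acta2, smooth muscle actin, had 1 read in SL2i and 4253 reads in SL, a level 1127 times as high in SL (95% interval 202 to 44526, counting error only). Cnn1, calponin, had 2 reads in SL2i and 3128 in SL, a level 414 times as high in SL (115 to 3424). Myl9 had 0.495 and 1.34 CPM in SL2i and 38.1, 38.7 and 37.9 CPM in SL (-5.36 ± 0.18, or -6.26 without the second SL2i library). Col1a1, a fibrillar collagen chain, had 1.88 and 1.54 CPM in SL2i and 21.5, 22.9 and 18.9 CPM in SL (-3.62 ± 0.18). Fn1, fibronectin, went against the list, with 2703 and 2685 CPM in SL2i and 973, 1019 and 981 CPM in SL (1.44 ± 0.03). The fibroblast marker sums above were lower in SL2i too, and their part in these falls was not tested. Thbs1, a secreted matrix protein, was among the 12 genes with the deepest falls under the naming rule, at 2.67 and 3.26 CPM in SL2i and 213, 212 and 201 CPM in SL (-6.13 ± 0.09).

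The largest rises among genes averaging 3 log2 CPM or more, with little shared sequence and groups that did not overlap were those of Arl14epl, Slc4a5 and Tbx3. Arl14epl, which encodes a protein related to the effector of ARL14, had 189 and 192 CPM in SL2i and 1.74, 1.96 and 2.22 CPM in SL (6.56 ± 0.08, 6.2% shared). Slc4a5, a sodium bicarbonate cotransporter, had 88.3 and 89 CPM in SL2i and 2.11, 1.73 and 1.76 CPM in SL (5.60 ± 0.10). Jam2, a junctional adhesion molecule, had 449.9 and 461 CPM in SL2i and 29.3, 27.5 and 27.8 CPM in SL (4.02 ± 0.04). All libraries of one medium lay within a narrow band for these genes. Fam25c, Zfp951, the ephrin receptor gene Epha4, the actin-binding protein gene Ablim1, the phosphodiesterase gene Pde8a, Rpl39l, Mitf and Gabarapl2 completed the 12, with log2 fold changes of 3.66 to 4.82. Mitf encodes a factor related to TFEB, a regulator of lysosomal genes, and had 44 and 45.4 CPM in SL2i and 2.73, 3.82 and 3.2 CPM in SL (3.74 ± 0.11).

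On the falling side Kif1a, a kinesin that carries vesicles along axons, had 0.99 and 0.48 CPM in SL2i and 189, 193 and 192 CPM in SL (-8.02 ± 0.11). Adgrd1, an adhesion G protein-coupled receptor, had 2.97 and 3.17 CPM in SL2i and 283, 280.2 and 284 CPM in SL (-6.52 ± 0.08). Esrp1, a splicing factor of epithelial cells, had 2.08 and 1.06 CPM in SL2i and 164, 174 and 164 CPM in SL (-6.74 ± 0.11). These genes were well expressed in SL and close to silent in SL2i. Sema3e, a guidance ligand, fell by 7.33 on the log2 scale, and Fndc3c1 had the largest fall of the rule, with a fitted -9.20 that rests on 4 reads in SL2i and 9185 in SL (19.9% shared). Without the first SL2i library the values of Fndc3c1, Kif1a and Atp10a were -10.18, -8.63 and -6.05. Car4, Tspan7, Frem2, Mmp25, Pou3f1, Thbs1 and Atp10a had log2 fold changes of -6.13 to -5.36.

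The genes through which cells take up, release and use pyruvate and lactate did not move as 1 group. Of 28 listed genes 27 were tested, 11 rose (40.7%) and 12 fell (44.4%), near the 35.8% and 37.2% of all tested genes, with a median of 0.02. Slc16a3, which encodes the lactate exporter MCT4, had 30.1 and 24 CPM in SL2i, against 179, 172 and 179 CPM in SL (-2.70 ± 0.06). Emb, embigin, an ancillary protein of monocarboxylate transporters, had 19.9 and 18.1 CPM in SL2i and 326, 329.5 and 342 CPM in SL (-4.13 ± 0.06, 17.6% shared). Basigin, the other such partner, encoded by Bsg, went up, with 461 and 466 CPM in SL2i and 351, 334 and 350.4 CPM in SL (0.43 ± 0.03). Pdk1, a kinase that switches off pyruvate dehydrogenase, had 52.5 and 52.7 CPM in SL2i and 254, 242 and 256 CPM in SL (-2.25 ± 0.05). Pdp2, a phosphatase that switches the same enzyme on, had 75.2 and 85.8 CPM in SL2i and 23.9, 26.9 and 23.9 CPM in SL (1.68 ± 0.07). Of their relatives, the kinase genes Pdk2 (0.51 ± 0.16) and Pdk4 (0.56 ± 0.14) rose, Pdk3 (-0.58 ± 0.07) fell, and the phosphatase gene Pdp1 (-1.12 ± 0.17) fell, so neither family moved in 1 direction. Ldha, the main lactate dehydrogenase subunit of glycolytic cells, fell by 0.66 on the log2 scale (20.1% shared). The low-level transporter Slc16a7 (MCT2), named after its values were seen, had 2 reads in SL2i and 143 in SL, a level 18.9 times as high in SL (95% interval 5.15 to 158, counting error only).

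In glycolysis 12 of 22 genes rose (54.5%) and 7 fell (31.8%), against 35.8% and 37.2% of all tested genes (median 0.09). Slc2a1, the glucose transporter GLUT1, had 267 and 238 CPM in SL2i and 887, 885 and 895 CPM in SL (-1.82 ± 0.04). The other main transporter of these cells, Slc2a3 (GLUT3), had 1822 and 1844 CPM in SL2i and 1765, 1777 and 1752 CPM in SL (0.05 ± 0.03, edgeR adjusted p = 0.0986). Hk1, a hexokinase of the mitochondrial surface, rose to 129 and 125 CPM in SL2i, against 40.6, 40.5 and 38.4 CPM in SL (1.67 ± 0.05). Pfkl, a phosphofructokinase subunit, fell by 1.23 ± 0.04 on the log2 scale. Gapdh showed a rise of 3.89, but 28.2% of its words occur in other genes, so this value is uncertain. Of 24 tricarboxylic acid cycle genes, 15 rose (62.5%) and 6 fell (25%), with a median of 0.16. Idh2, the mitochondrial isocitrate dehydrogenase that makes NADPH, rose by 1.45 ± 0.04. Of 24 genes of NADH shuttles and NAD synthesis, 12 rose (50%) and 8 fell (33.3%), with a median of 0.21. Naprt, which starts NAD synthesis from nicotinic acid, had 6.04 and 4.51 CPM in SL2i and 52.8, 49.4 and 47.6 CPM in SL (-3.23 ± 0.11, 10.3% shared), and Slc25a13, a carrier of the malate-aspartate shuttle, rose by 0.70 ± 0.04.

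Respiratory chain subunits encoded in the nucleus shifted slightly upwards, with 59 of 72 higher, 2 lower and 11 not called and a median of 0.37. Cox5a, a subunit of cytochrome c oxidase, had 319 and 313 CPM in SL2i and 156, 158 and 153 CPM in SL (1.02 ± 0.03, 14.1% shared). Words shared with other genes reach 5% in 38 of the 72, and genes with more shared sequence had higher fold changes across the whole table. Over all tested genes the median log2 fold change was -0.10 under 5% shared and 0.16 at 20% or more. The part of shared reads in the respiratory shift was not tested. Lysosomal and TFEB-related genes also rose more often than they fell, 16 against 6 of 25 (median 0.63), among them Psap, the precursor of the saposins, by 1.29 ± 0.03 and Grn, progranulin, by 1.34 ± 0.04.

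Amino acid stress genes driven by ATF4 were lower. Of 33 genes 25 fell, 3 rose and 5 were not called, with a median of -0.84. Psat1, an enzyme of serine synthesis, had 280.2 and 304 CPM in SL2i and 756, 762 and 738 CPM in SL (-1.36 ± 0.03). Slc38a2, a carrier of small neutral amino acids, had 242 and 238 CPM in SL2i and 779, 788 and 781 CPM in SL (-1.70 ± 0.03). Ddit4, an inhibitor of mTORC1, had 33.6 and 30.2 CPM in SL2i and 177, 163 and 175 CPM in SL (-2.43 ± 0.06). Asns, asparagine synthetase, was the clearest exception, with 1268 and 1258 CPM in SL2i and 461, 457 and 436 CPM in SL (1.49 ± 0.03). Chac1, a glutathione-degrading enzyme, followed the list, with 7.23 and 7.87 CPM in SL2i and 40.6, 39.3 and 37 CPM in SL (-2.36 ± 0.11). ATF4 binds a composite element (CARE), searched here as TGATGNAA on both strands. It was in 9 of 32 promoters of the list, from 9 of the 27 listed genes with a promoter. The shares were 3.97% of all promoters and 2.40% of those of tested genes. Upstream of the start it was in all 3 listed genes that rose (Asns, Nupr1 and Pycr1). Of the 25 that fell, not all had a promoter to search, and Chac1, Slc7a11, Pck2 and Vldlr held it there. The 9 genes include others without it upstream of the start. The promoters of Asns and Chac1 are shown because both hold the element while the genes moved in opposite directions. They are at chr6:7693210-7693459 on the minus strand and at chr2:119350992-119351241 on the plus strand of GRCm38.p6, with the element in capitals.
Asns: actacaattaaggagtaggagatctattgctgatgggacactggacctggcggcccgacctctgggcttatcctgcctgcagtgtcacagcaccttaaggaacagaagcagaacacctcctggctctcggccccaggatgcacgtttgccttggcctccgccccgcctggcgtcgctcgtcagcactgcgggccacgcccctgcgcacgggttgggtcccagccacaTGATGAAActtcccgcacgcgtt
Chac1: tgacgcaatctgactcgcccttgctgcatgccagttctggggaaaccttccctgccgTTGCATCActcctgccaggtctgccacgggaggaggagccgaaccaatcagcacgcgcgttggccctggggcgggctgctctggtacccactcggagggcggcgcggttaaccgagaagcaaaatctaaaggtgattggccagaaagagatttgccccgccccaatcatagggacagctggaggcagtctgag
The element begins 23 bases before the start in Asns and 193 bases before it in Chac1, where it lies on the other strand.

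Sterol genes were slightly lower and fatty acid genes mixed. Of 25 cholesterol genes, 17 fell (68%) and 6 rose (24%), against 37.2% and 35.8% of all tested genes (median -0.30). Ebp, a sterol isomerase, rose by 1.86 ± 0.08. Of 16 fatty acid genes, 9 rose (56.25%) and 4 fell (25%), with a median of 0.29. Elovl6, an elongase, was higher by 0.98 ± 0.03 (6.7% shared). Hypoxia genes fell in 12 of 18 cases and rose in 4 (median -0.63), and this list shares Pdk1, Slc2a1 and Ldha with the lists above. Of 19 p53 targets, 11 fell and 6 rose (median -0.18). Cdkn1a, the cell cycle inhibitor p21, nevertheless had 238 and 239 CPM in SL2i and 57.7, 57.3 and 55.2 CPM in SL (2.07 ± 0.04, 9.87% shared). Perp, a desmosomal protein, fell by 3.21 ± 0.07 on the log2 scale. Among 22 genes of G1 control, 12 rose (54.5%) and 8 fell (36.4%), with a median of 0.31. Ccnd3, a D-type cyclin, rose by 1.13 ± 0.04 (8.17% shared).

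Genes of other lineages and of chromatin states gave mixed lists, to be read against 35.8% higher and 37.2% lower over all tested genes. Of 22 Polycomb genes, 13 rose (59.1%) and 6 fell (27.3%), with a median of 0.44. Suz12, a core subunit of the Polycomb complex that methylates histone H3, rose by 1.11 ± 0.03, Epop, an accessory subunit found in ESCs, rose by 1.50 ± 0.03, and Phc1, a subunit of the second Polycomb complex, fell by 1.21 ± 0.03. Among 17 primitive endoderm genes, 8 rose (47.1%) and 8 fell (47.1%), with a median of 0.45. The basement membrane genes Lamb1 (-3.53 ± 0.05) and Col4a1 (-2.64 ± 0.07) were among those that fell. The laminin genes Lama1 (0.99 ± 0.05) and Lamc1 (1.07 ± 0.03) rose. Hnf4a, a nuclear receptor of the visceral endoderm, had the largest rise of the list, with 91 reads in SL2i and 1 in SL, a level 343 times as high in SL2i (95% interval 60.1 to 13711, counting error only). Among 14 trophoblast genes, 6 rose (42.9%) and 6 fell (42.9%), near the shares over all tested genes (median -0.12). Tfap2a, an AP-2 factor, had 43.5 and 45.1 CPM in SL2i and 0.992, 1.57 and 1.04 CPM in SL (5.15 ± 0.13, 12.9% shared). The simple epithelial keratin Krt18, in contrast, had 26.7 and 23.3 CPM in SL2i and 262, 278 and 239 CPM in SL (-3.37 ± 0.07, 12.4% shared). Of 10 mesoderm genes 5 rose (50%) and 2 fell (20%), with a median of 0.40. Of 9 neural genes 2 rose (22.2%) and 5 fell (55.6%), with a median of -1.53. Of 22 germline genes 8 rose (36.4%) and 10 fell (45.5%), near the shares over all tested genes (median -0.57). Dazl, an RNA-binding protein of germ cells, was higher by 1.09 ± 0.13 and Mael, a piRNA pathway protein, was at -2.52 ± 0.19. Genes of the two-cell-like state rose in 11 of 12 tested cases, but 11 of the 12 share at least 5% of their words. Zscan4d had 56 reads in SL2i and 0 in SL, at least 70.4-fold higher when 3 counts are set as the floor over the SL group (66% shared).

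Imprinted genes, which are expressed from 1 parental copy and whose levels follow DNA methylation at control regions, mostly fell. Of 36 listed genes 33 were tested, 22 fell, 6 rose and 5 were not called, with a median of -1.15. Peg10, a retrotransposon-derived gene expressed from the paternal copy, had 127 and 133 CPM in SL2i and 1060, 1078 and 1028 CPM in SL (-3.02 ± 0.04). Meg3, a maternally expressed long RNA, had 56.9 and 56.6 CPM in SL2i and 234, 253 and 255 CPM in SL (-2.13 ± 0.05, 11.5% shared). Plagl1, a zinc finger factor on chromosome 10, had the largest rise of the list. It had 41.2 and 43 CPM in SL2i, 864 reads in all, and 0.31, 0.13 and 0.359 CPM in SL, 20 reads in all (7.31 ± 0.15, edgeR adjusted p = 3.53e-65). H19, a maternally expressed RNA, had 6.93 and 8.64 CPM in SL2i and 0.868, 0.815 and 0.816 CPM in SL (3.22 ± 0.26, 5.39% shared). Cobl, an actin nucleator, rose by 2.71 ± 0.04.

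The response of clone 2 was then tested against that of chr8A, with the difference of both responses as the contrast and no library in common. Most calls were shared: 12510 genes were called in chr8A (72.8%), 10849 genes were called in both lines, which is 86.4% of the calls in clone 2 and 86.7% of those in chr8A, and 10695 of them had the same sign. Across the 17178 genes, which are not independent replicates, Pearson's r of both log2 fold changes was 0.905. The difference itself was called for 2898 genes (16.9%), higher in clone 2 for 1321 (7.69%) and lower for 1577 (9.18%), and it reached 2-fold in 470 genes (2.74%). Of the 2898, 677 rose in clone 2 with a response above that of chr8A and 509 rose with a response below it. A further 833 fell in clone 2 with a lower response than in chr8A, 458 fell with a higher one, and 421 were not called in clone 2. In 154 the calls of the lines had opposite signs. The median SE of a difference was 0.168.

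**Figure D4:**
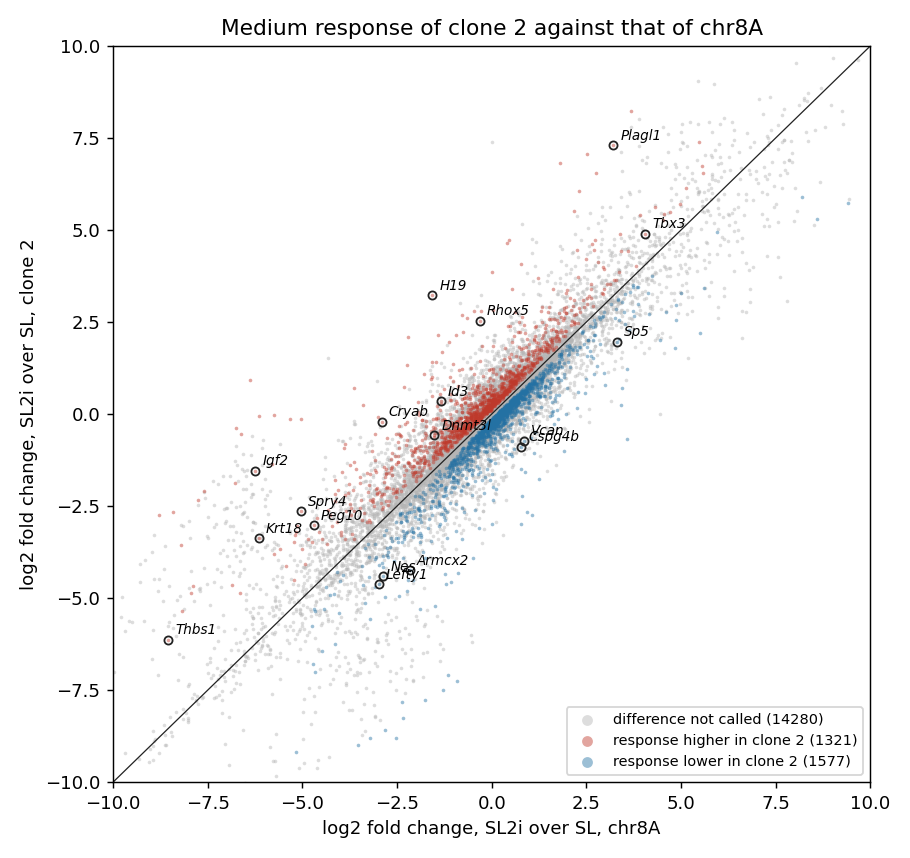
Log2 fold change of SL2i over SL in clone 2 (vertical axis) against the same in chr8A (horizontal axis), with the line of equality. Red points (1321 genes) had a higher response in clone 2, blue points (1577) a lower one and grey points (14280) no called difference; Plagl1, H19, Rhox5, Igf2, Spry4 and Krt18 lie above the line and Vcan, Cspg4b, Nes, Lefty1, Armcx2 and Sp5 below it.

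The ERK output genes fell less in clone 2 than in chr8A for 9 of the 22 and more for 1, with medians of -1.56 in clone 2 and -2.19 in chr8A. These were 40.9% and 4.55% of the list, against 7.69% of all tested genes with a higher and 9.18% with a lower response. Spry4 differed most among the named ones. Its fall of 2.64 in clone 2 stood against 5.04 in chr8A, where it had 3.77 and 4.64 CPM in SL2i and 139.7, 138 and 137 CPM in SL (difference 2.40 ± 0.14, edgeR adjusted p = 2.71e-27). The SL levels of both lines were near each other, and the SL2i level was higher in clone 2. Dusp6 had 6.18 and 5.83 CPM in SL2i and 137, 135 and 127 CPM in SL of chr8A (difference 1.07 ± 0.15, edgeR adjusted p = 1.3e-08), and Etv4 differed by 1.29 ± 0.12. For Dusp4 the difference was 1.77 ± 0.40, but it was 1.32 with an adjusted p of 0.0714 in edgeR without the first SL2i library of clone 2. Dusp5 showed no detectable difference (-0.04 ± 0.25, edgeR adjusted p = 0.952).

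Keratins of the trophoblast list fell less in clone 2. Krt18 had 3.96 and 4.84 CPM in SL2i and 318, 318 and 304 CPM in SL of chr8A, a log2 fold change of -6.15 ± 0.09 there, and the difference was 2.78 ± 0.16 (edgeR adjusted p = 1.15e-16). Krt19, another keratin, differed by 2.22 ± 0.35 and Krt8 by 1.52 ± 0.10 (36.7% shared). Among the 14 trophoblast genes, which include these keratins, the response was higher in clone 2 for 8 (57.1%) and lower for 1 (7.14%). Over all tested genes these shares were 7.69% and 9.18%. The list's median difference was 1.28. Thbs1 differed by 2.41 ± 0.35, and in both lines its SL2i level was a few CPM at most. Car4, a carbonic anhydrase anchored at the cell surface, had 1.49 and 0.864 CPM in SL2i and 67.6, 72 and 68.4 CPM in SL of clone 2. In chr8A it had no read in SL2i and 5894 in SL, which is at least 534-fold lower with a floor of 3 counts over the group. The difference therefore has no upper bound, and its fitted value is uncertain. Myl9 differed by 2.82 ± 0.74, a call that ended without the second SL2i library of clone 2 (1.94, edgeR adjusted p = 0.237) and without the first SL2i library of chr8A (2.41, edgeR adjusted p = 0.0526). It was the only member of the fibroblast and matrix list with a higher response in clone 2, against 2 of 18 with a lower one. These shares, 5.56% and 11.1%, were near those of all tested genes. Cnn1, with fitted values of -8.59 in clone 2 and -6.57 in chr8A, was not called (difference -2.02 ± 1.00, edgeR adjusted p = 0.169) except without the second SL2i library of chr8A (-2.80), and Acta2, with 1 read in SL2i of clone 2 and 0 in SL2i of chr8A, was not called either. Cryab, a small heat shock protein, had 12.1 and 13.9 CPM in SL2i and 15.9, 16.5 and 13 CPM in SL of clone 2, ranges that overlapped, and was not called (-0.21 ± 0.12, edgeR adjusted p = 0.105). It was called, as lower, without the third SL library of clone 2 (-0.33), with no filter on low counts (-0.28) and with thinned libraries (-0.32). In chr8A it had 3.29 and 2.47 CPM in SL2i and 23.4, 19.3 and 22.3 CPM in SL (difference 2.69 ± 0.22, 14.8% shared).

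Several imprinted genes and the X-linked Rhox5 differed between the lines. Plagl1 had 391 and 390.3 CPM in SL2i and 42.3, 38.9 and 45.4 CPM in SL of chr8A, so its fold change of 3.21 ± 0.04 there came with levels far above those of clone 2 in both media (difference 4.10 ± 0.21, edgeR adjusted p = 4.72e-31). H19 had 0.29 and 1.28 CPM in SL2i and 2.3, 2.29 and 2.41 CPM in SL of chr8A, a fall there and a rise in clone 2 (difference 4.79 ± 0.44, edgeR adjusted p = 3.66e-16, and 4.09 or 6.21 without the first or the second SL2i library of chr8A). Its neighbour Igf2, a growth factor, had 45.1 and 45.7 CPM in SL2i and 129.7, 139.7 and 127 CPM in SL of clone 2, and 2.71 and 3.26 CPM in SL2i and 237, 212 and 235 CPM in SL of chr8A. The difference was 4.71 ± 0.17, with 63.2% of its words shared. Rhox5, a homeobox gene silenced by promoter methylation in most tissues, had 147 and 136 CPM in SL2i and 26.4, 25.3 and 22.2 CPM in SL of clone 2. In chr8A it had 14.9 and 13.5 CPM in SL2i and 17, 16.4 and 19.7 CPM in SL (difference 2.85 ± 0.12, edgeR adjusted p = 2.33e-33). Peg10 fell less in clone 2 (difference 1.67 ± 0.06), and Meg3 fell more (-1.05 ± 0.07). Over the 33 imprinted genes the response was higher in clone 2 for 9 (27.3%) and lower for 4 (12.1%). Over all tested genes these shares were 7.69% and 9.18%, so the share with a lower response was near the background. Dnmt3l, the cofactor of the de novo enzymes, had 158 and 157 CPM in SL2i and 463, 459 and 435 CPM in SL of chr8A and fell less in clone 2 (difference 0.95 ± 0.05, edgeR adjusted p = 4.71e-31), while Dnmt3a fell more (-0.63 ± 0.07).

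Other genes, and part of some lists, responded more negatively in clone 2. Nes fell by 4.40 in clone 2 and by 2.86 in chr8A on the log2 scale (difference -1.54 ± 0.10, edgeR adjusted p = 9.69e-25), Lefty1 by 4.63 and 2.99 (-1.64 ± 0.13), and the X-linked Armcx2, a mitochondrial armadillo-repeat protein gene, by 4.24 and 2.17 (-2.07 ± 0.17). Otx2 fell by 3.62 in clone 2 and by 2.68 in chr8A (-0.94 ± 0.23), a call that ended without the first SL2i library of chr8A (-0.79, edgeR adjusted p = 0.0555). Formative genes as a list had a lower response in clone 2 for 9 of 17 (52.9%) and a higher one for 2 (11.8%). For this and the 2 lists below, the shares over all tested genes were 9.18% lower and 7.69% higher. Vcan, the proteoglycan versican, had 41.5 and 46.1 CPM in SL2i and 73.4, 70.9 and 72.9 CPM in SL of clone 2, and 87.9 and 86.1 CPM in SL2i and 50.6, 44.1 and 49.2 CPM in SL of chr8A. It fell in clone 2 (-0.72 ± 0.06) and rose in chr8A (0.86 ± 0.06), with a difference of -1.58 ± 0.08, and Cspg4b did likewise (-1.66 ± 0.11). The response of Wnt targets was lower in clone 2 for 6 of 16 (37.5%) and higher for 1 (6.25%). The list's median log2 fold change was nevertheless higher in clone 2, at 0.93 against 0.41 in chr8A. Of the 6, Axin2, Notum, Sp5 and Tnfrsf19 rose less in clone 2, while Lef1 (-1.64 in clone 2 and -0.79 in chr8A, difference -0.85 ± 0.20) and Ccnd1 (-1.18 and -0.80, difference -0.39 ± 0.06) fell more. The call for Axin2 (difference -0.40) ended without the second SL library of clone 2 (-0.21) or the first SL2i library of chr8A (-0.30). That for Notum (-0.40) ended without the third SL (-0.34) or second SL2i library (-0.30) of clone 2. It also ended without the first (-0.30) or second SL library (-0.37) or the first SL2i library (-0.37) of chr8A. Sp5 had 26.6 and 27.7 CPM in SL2i and 2.3, 2.56 and 3.39 CPM in SL of chr8A (difference -1.33 ± 0.20, edgeR adjusted p = 9.96e-08). Among the 33 ATF4 genes the response of clone 2 was lower for 17 (51.5%) and higher for 2 (6.06%), with medians of -0.84 in clone 2 and -0.61 in chr8A. Slc38a2 fell by 1.70 in clone 2 and by 1.03 in chr8A (difference -0.68 ± 0.05, edgeR adjusted p = 6.4e-24), and Psat1 differed by -0.42 ± 0.05.

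In the pyruvate and lactate list the response was lower in clone 2 for 8 of 27 and higher for 2, against 9.18% lower and 7.69% higher over all tested genes. Emb fell more in clone 2 (difference -0.70 ± 0.10, edgeR adjusted p = 9.75e-09) and Pdk1 slightly less (0.26 ± 0.07, edgeR adjusted p = 0.00477). Slc16a3 differed by -0.28 ± 0.10. That call ended without the second SL2i library of clone 2 (-0.11), the second SL2i library of chr8A (-0.14), the first (-0.27) or the third (-0.26) SL library of clone 2, or the first (-0.25) or the second (-0.28) SL library of chr8A. The clearest difference in glycolysis was that of Slc2a3, which fell in chr8A (-0.39 ± 0.03), where it had 1699 and 1648 CPM in SL2i and 2243, 2095 and 2226 CPM in SL, and was not called in clone 2 (difference 0.44 ± 0.04, edgeR adjusted p = 1.09e-14). Respiratory chain genes had a lower response in clone 2 for 11 of 72 (15.3%) and a higher one for 3 (4.17%), 19.4% in all against 16.9% of all tested genes, so their share of called differences was near the background.

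**Figure D5:**
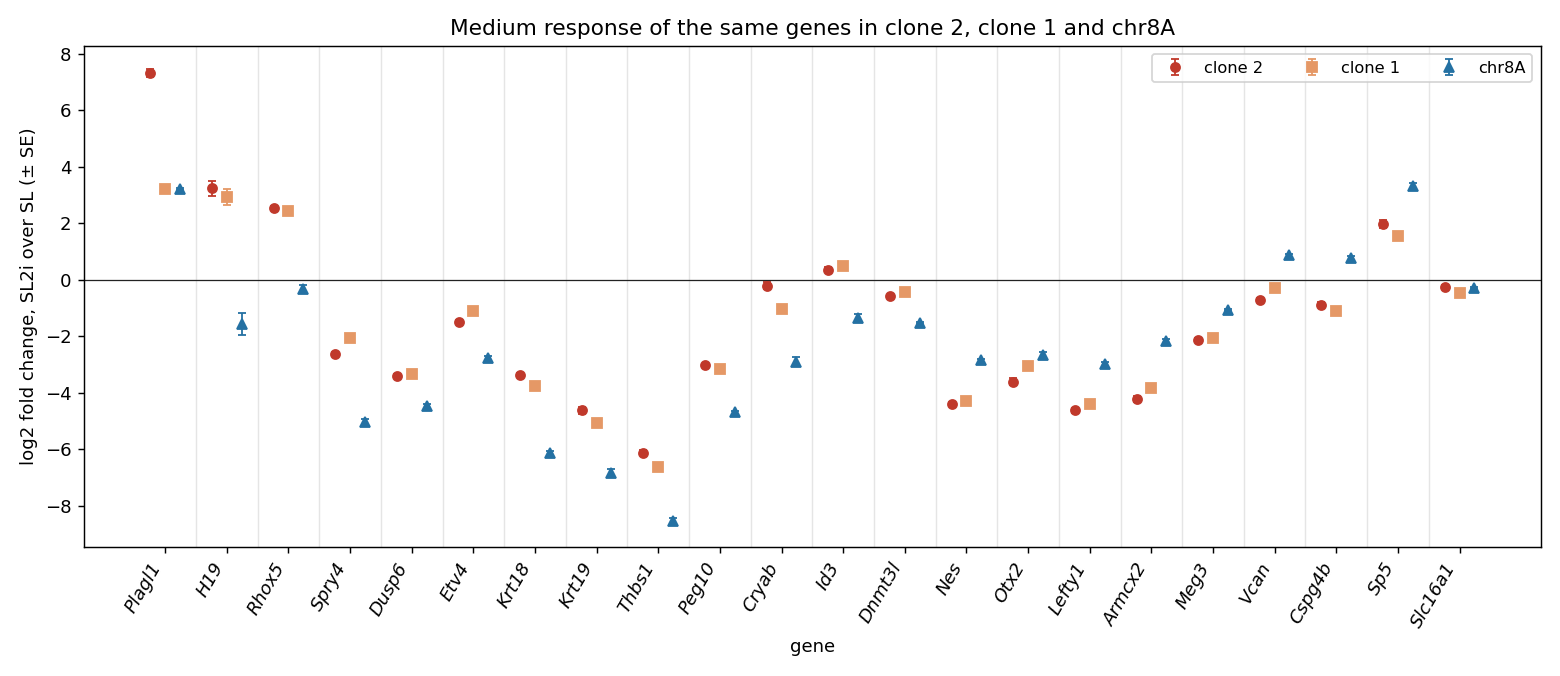
Log2 fold change of SL2i over SL ± SE (vertical axis) of 22 genes (horizontal axis) in clone 2 (red circles), clone 1 (orange squares) and chr8A (blue triangles). Clone 2 and clone 1 lie close together for most genes shown and chr8A apart from both; Plagl1 is the exception, with 7.31 in clone 2 against 3.20 in clone 1 and 3.21 in chr8A, and Slc16a1 is near 0 in all lines.

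The same test against clone 1 called few genes. The response of clone 2 differed from that of clone 1 for 80 genes (0.466%), higher for 48 (0.279%) and lower for 32 (0.186%), and 4 of these (0.0233%) reached 2-fold. Of the tested genes 1701 had an unadjusted p under 0.05 in this contrast, against 4850 in the contrast with chr8A. In clone 1 itself 12540 genes were called (73%), and 11306 of them were also called in clone 2, which is 90.1% of the calls in clone 2, with 5 of opposite sign. Plagl1 gave the largest difference: clone 1 had 209 and 215 CPM in SL2i and 21.8, 22.3 and 24.9 CPM in SL, a log2 fold change of 3.20 ± 0.05 (difference 4.11 ± 0.22, edgeR adjusted p = 1.71e-29). Clone 2 was thus the line in which Plagl1 was nearly silent in SL and lowest in SL2i. Spry4 fell less in clone 1, where it had 34.7 and 39.2 CPM in SL2i and 157, 158 and 156 CPM in SL (difference -0.56 ± 0.09, edgeR adjusted p = 6.1e-05), and held its call without each library in turn, as did Plagl1. Cryab (0.83 ± 0.18), Zfp867 (0.84 ± 0.20), the metalloreductase gene Steap2 (0.72 ± 0.17), Vcan (-0.43 ± 0.09) and Etv4 (-0.39 ± 0.10) were also called. Each of these lost its call without certain libraries: Cryab without the first SL2i library of clone 1 (0.70) or the second of clone 2 (0.72), and Vcan without the second of clone 1 (-0.40) or the first of clone 2 (-0.36). Steap2 lost it without the first SL2i library of clone 2 (0.63), the first (0.61) or second (0.84) of clone 1, or the first SL library of clone 1 (0.68). Zfp867 lost it without the first SL2i library of clone 2 (0.73), the first (0.73) or second (0.97) of clone 1, the first SL library of clone 2 (0.81) or the third of clone 1 (0.79). Etv4 lost it without the second SL2i library of clone 2 (-0.27), the first (-0.45) or second (-0.32) of clone 1, the first (-0.37) or the third (-0.38) SL library of clone 2, or the first (-0.36) or the third (-0.40) of clone 1. Without single libraries the count of 80 ranged from 28, without the first SL2i library of clone 1, to 87; it was 47 without the second SL2i library of clone 1 or the third SL library of clone 2, and 53 without the first SL library of clone 1. It was 130 with a replicate block and 153 when only the compared groups were fitted. Slc2a3 responded differently from clone 1 too (0.31 ± 0.04, edgeR adjusted p = 9.81e-07). H19, Rhox5, Krt18 and Dnmt3l, which differed from chr8A, showed no called difference from clone 1, with differences of 0.30 ± 0.40, 0.10 ± 0.09, 0.38 ± 0.11 and -0.15 ± 0.05.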

How the data were processed

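Poly(A) RNA was sequenced from stranded libraries with 500 ng of RNA, per the labels' protocols. Gene counts were deposited by the authors as unnormalized read counts, made with DRAGEN 3.10, featureCounts (Subread) and build GRCm39 per the submitters' processing notes. The sources used here do not name the strand setting. The table holds 15 libraries in 6 groups, and the 6 libraries of a second table of the series were not used.

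Genes were kept with filterByExpr and tested with edgeR 4.0.16 (R 4.3.3) using TMM factors, 1 mean per group over all 15 libraries and robust quasi-likelihood dispersion. P-values were adjusted over the 17178 tested genes by the Benjamini-Hochberg method and called under 0.05. Levels and marker sums are CPM on TMM-scaled library sizes. The differences between lines were contrasts of responses that share no library. For genes with 1 to 3 reads in a group, a ratio with an exact 95% binomial interval is given, and for none, a bound from 3 counts over the group; both cover counting error only. Scripts were tested on simulated data. Alternatives were RLE factors, other filters, DESeq2 1.42.0, a replicate block, fits of the compared groups alone, thinning of every library to 9784408 counts and leaving out each library.

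A gene's shared percentage is its share of 30-base words found in other genes of GENCODE M21 (GRCm38), known for 92.7% of the tested genes; from 5% a value is uncertain, since reads may be split between copies. Promoters and chromosomes come from RefSeq GRCm38.p6, to which 96.5% of IDs matched.

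Named were Slc16a1, the 12 largest rises and falls among called genes averaging 3 log2 CPM or more, with under 20% shared words, groups that do not overlap and a gene symbol that is not provisional, the 8 and 8 largest differences from chr8A, the 4 and 4 from clone 1, and in each of 29 lists anchor genes and up to 4 genes with the smallest adjusted p. Members and lists were chosen with earlier results of these data known. Bsg, Dnmt1, Dppa3, Dusp5, Egr2, Etv1, Etv5, Foxd3, Gbx2, Hnf4a, Lama1, Lef1, Nkd1, Nupr1, Pck2, Pdk2, Pdk3, Pdk4, Pdp1, Pycr1, Slc16a7, Slc7a11, Tdgf1, Tet3, Tnfrsf19 and Vldlr and the CARE motif were chosen after their values were seen. A few genes that the rule names are not reported here. Replicate numbers did not pair the libraries: correlations of deviations between media lay between -0.0190 and 0.0190.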

Additional observations from a re-analysis of the deposited data

Results flagged for a closer look

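The test of the difference between responses called 2898 genes between clone 2 and chr8A and 80 genes between clone 2 and clone 1. The values below are the difference of log2 fold changes, clone 2 minus the other line, for the named genes whose edgeR difference was called and at least 2-fold, or among the largest named for that line.

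Against chr8A, a higher response in clone 2 was found for Car4 (7.56, a fitted value that depends on the prior count because chr8A had no read in SL2i), H19 (4.79), Igf2 (4.71), Plagl1 (4.10), Rhox5 (2.85), Myl9 (2.82), Krt18 (2.78), Cryab (2.69), Thbs1 (2.41), Spry4 (2.40), Krt19 (2.22), Gata6 (2.01), Dusp4 (1.77), Id3 (1.70), Peg10 (1.67), Krt8 (1.52), Cdkn1c (1.46), Etv4 (1.29), Col4a2 (1.15) and Dusp6 (1.07). Id3, a BMP target, had 6.57 and 7.6 CPM in SL2i and 16.8, 18 and 19.3 CPM in SL of chr8A, a fall there and a rise in clone 2. Gata6, a primitive endoderm factor, rested on under 1.3 CPM in every library of clone 2, and its difference lost its call without any single library of either line except the third SL library of clone 2 and the first and second of chr8A, with values of 1.71 to 2.29.

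A lower response in clone 2 was found for Armcx2 (-2.07), Col9a2 (-1.95, and -2.80 without the first SL2i library of clone 2), Duxbl1 (-1.93, 96.3% shared), Evc2 (-1.79), Cspg4b (-1.66), Lefty1 (-1.64), Dzip1l (-1.63), Dtna (-1.62), Mdfi (-1.58), Vcan (-1.58), Nes (-1.54), Sp5 (-1.33), Meg3 (-1.05) and Frem2 (-1.01, not called without the first SL2i library of clone 2, at -0.73, or the second of chr8A, at -0.83).

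Against clone 1, the response was higher for Plagl1 (4.11), Zfp867 (0.84), Cryab (0.83) and Steap2 (0.72) and lower for Spry4 (-0.56), Vcan (-0.43) and Etv4 (-0.39). Of these 7 genes Zfp867 showed no called difference from chr8A (0.19 ± 0.19, edgeR adjusted p = 0.562), and the other 6 differed from both lines. The causes of these differences were not tested.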

How the results depend on the processing

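No called result changed direction under any alternative run. Of 188 named genes, 183 were called for SL2i against SL, against 73.1% of all tested genes. The naming rule raises that share, since it picks many genes by their call or p-value in this comparison. All 188 stayed on their side of the threshold with RLE factors, a filter of 1 CPM in 2 libraries, a replicate block or only the compared groups. The number was 186 without a filter, 185 with DESeq2 or thinning and 185 to 187 without single libraries. Requiring 2-fold as well left 5914 genes for the medium, 470 for the difference from chr8A and 4 for that from clone 1. For clone 1, the replicate block gave 130 and the compared groups alone 153. Groups share only replicate numbers; the block gave 12514 genes for the medium and 3059 for chr8A. Thinning gave 11599, 2340 and 74 genes for the medium, chr8A and clone 1, and DESeq2 gave 11798, 2002 and 77; for clone 1, 56 of the 74 and 44 of the 77 were among the 80, and DESeq2 gave an adjusted p there for 2042 genes. Without 1 library the counts ranged from 11398 to 12327 for the medium, from 2142 to 2709 for chr8A and from 28 to 87 for clone 1; an arm left with 1 library was assumed to vary like the other groups. In the medium comparison Gata6 (0.99 without the first SL library, 0.91 without the first SL2i library), Hk2 (-0.07 without the second SL library, -0.06 without the first SL2i library), Ndufs1 (0.08 without the third SL library, 0.09 without the first SL2i library) and Zfp867 (-0.25 without the second SL2i library) lost their calls. Without the first SL2i library the fitted values of Fgf5 and Acta2, with 3 and 1 SL2i reads, were -6.94 and -12.96, against -6.35 and -9.93 with all libraries; without the second, Acta2 was at -9.02. The causes were not tested. Depth limits genes under 1 log2 CPM most.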

Other observations

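By chromosome, the median log2 fold change of SL2i over SL in clone 2 was lowest on the X, at -0.32 over 593 tested genes. Of these, 49.9% were called lower, against 37.2% of all tested genes. The X median was -0.25 in chr8A and -0.37 in clone 1, so it was not lowest in clone 2. Of the X-linked genes, 24.3% differed in response between clone 2 and chr8A, against 16.9% of all tested genes. Chromosome 14 had a median of -0.21.

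The level of Peg3, a paternally expressed zinc finger gene, lay below that of chr8A in either clone and medium. It had 29.3 and 32 CPM in SL2i and 92.8, 101 and 94.7 CPM in SL of clone 2, 33.5 and 34 CPM in SL2i and 94, 101 and 95.2 CPM in SL of clone 1, and 145 and 151 CPM in SL2i and 445, 434 and 439 CPM in SL of chr8A. The ranges of the clones did not overlap those of chr8A within a medium. The log2 fold change was -1.65 ± 0.06 in clone 2 and -1.57 ± 0.04 in chr8A, and their difference was not called (-0.08, edgeR adjusted p = 0.498).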
